A study of Mus musculus with 4 samples.

Results

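Replication-dependent histone genes were followed in ILC87-Ik1-ER cells in which Ikaros activity was switched on for 24 h. The genes were taken by their symbols on the array, which follow the histone cluster nomenclature, using probe sets that name exactly 1 gene. The rule found 32 histone genes among the 19938 genes with a symbol of their own, in 5 classes: 6 genes for the linker histone H1, 5 for H2A, 11 for H2B, 3 for H3 and 7 for H4. For 23 of them the current array symbol fitted the pattern, and the other 9 were recognised by an older Hist symbol. Each had 1 probe set. The rule uses names only, so the measured values played no part in it. It also took in H1f10, a linker histone gene that is expressed outside S phase, the testis genes H1f6, H2ac1 and H2bc1, and the pseudogene H2bu1-ps.

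ILC87 is a T-cell line that was grown out of a thymic tumour of an Ikaros f/f Lck-cre+ mouse, in which Cre, driven by the T-cell promoter of Lck, removes Ikaros. The sample labels give the strain as C57BL/6, whereas the study's methods describe mice of this genotype as a mix of C57BL/6 and another strain. All 4 samples carried MigR1:Ik1-ER, a retrovirus for full-length Ikaros-1 joined to the hormone-binding part of the estrogen receptor, with GFP as a marker, and were sorted as GFP-positive cells. The conditions compared were as follows: 2 samples received 100 nM 4-hydroxytamoxifen (4OHT), which activates the fusion protein, and 2 samples received the vehicle ethanol (EtOH), each for 24 h. The comparison asks which histone transcripts differ once Ikaros is active. No arm of cells without Ik1-ER was on these arrays, so an effect of 4OHT itself cannot be told apart from that of Ikaros. Values are RMA log2 values, on which a difference of 1 is a doubling.

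Replication-dependent histone genes supply the proteins that package newly made DNA, and they are transcribed mainly in S phase. They lie in clusters, have no introns, and most of their mRNAs end in a stem-loop bound by SLBP in place of a poly(A) tail. NPAT, a substrate of cyclin E and CDK2, switches on their transcription. Some of them, in human cells the counterparts of H1f2 and H2bc21 among others, can also give polyadenylated mRNA outside S phase. Ikaros is a zinc-finger DNA-binding protein of lymphoid cells. In RefSeq, 23 of the 32 genes lie on chromosome 13, 4 on chromosome 3, 3 on chromosome 11 and 2 on chromosome 6.

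One of the 32 genes, the H2B gene H2bc4, fell in 4OHT-treated cells at an adjusted p under 0.05 (limma, Benjamini-Hochberg over all probe sets), and none was called higher. Over all 19938 genes, 2.99% were called lower and 1.23% higher in the same test. At an unadjusted p under 0.05, H2bc4 was again the only lower member, against 11.7% of all genes, and 4 members were higher (H1f6, H2bu2, H2bc21 and H3c4), against 8.74% of all genes. The estimated log2 fold change (4OHT over EtOH) was positive in 29 of the 32 genes, with a median of 0.12. It was positive in 57.7% of all genes, whose median was 0.031. After another quantile normalization 27 histone genes had a positive estimate (median 0.15), and with equal array medians 26 did (median 0.10). Both 4OHT arrays lay above both EtOH arrays for 19 of the 32 genes (32.1% of all genes), and below both for H2bc4 alone (24.5% of all genes). In the remaining 12 genes the arrays of the 2 conditions overlapped, as they did in 8658 of all 19938 genes. A difference in the number of cells in S phase and a difference in histone mRNA per cell cannot be told apart in such bulk samples, and RMA, which equalises the arrays, cannot show a change shared by most genes.

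**Figure D1:**
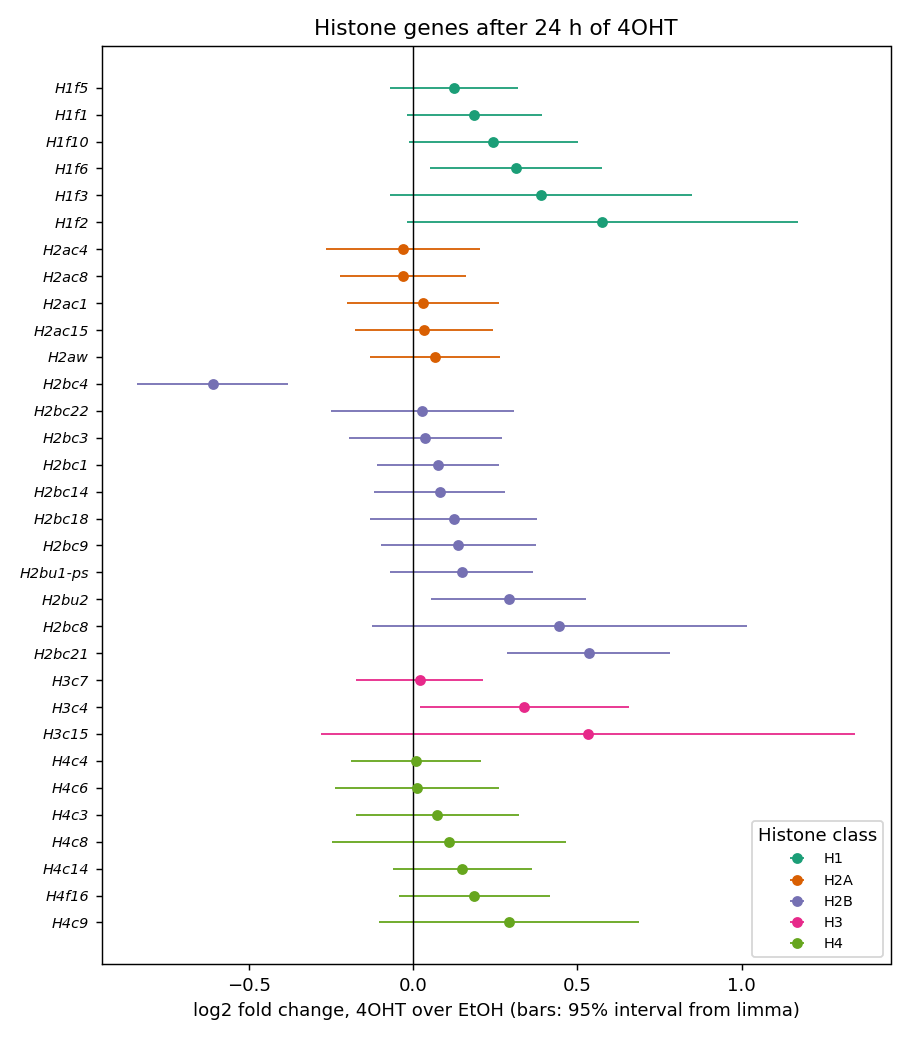
log2 fold change of each of the 32 histone genes (horizontal axis, 4OHT over EtOH, 2 arrays each), ordered by class; points are estimates and bars are 95% intervals from limma. H2bc4 lies at -0.61, apart from the other 31 genes, which lie between -0.031 and 0.58.

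EtOH replicate 1 stood apart in the histone genes. It gave the lowest of the 4 values for 25 of the 32 histone genes (78.1%), against 23.9% of all genes. It was lowest for all 7 H4 genes, all 3 H3 genes, 8 of 11 H2B genes, 4 of 6 H1 genes and 3 of 5 H2A genes. Without that array, 22 of the 32 estimates were positive and 10 negative, with a median of 0.065. Of all 19938 genes, 11610 then had a positive estimate, with a median of 0.036. Without EtOH replicate 2 the median was 0.19 (all genes: 0.015). Over all probe sets the 2 EtOH arrays correlated at Pearson r = 0.996 and the 2 4OHT arrays at r = 0.994. Arrays of different conditions reached 0.989 to 0.990, so these values do not show that the EtOH arrays were alike outside the histone genes. The part of the array in the histone values was not tested.

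**Figure D2:**
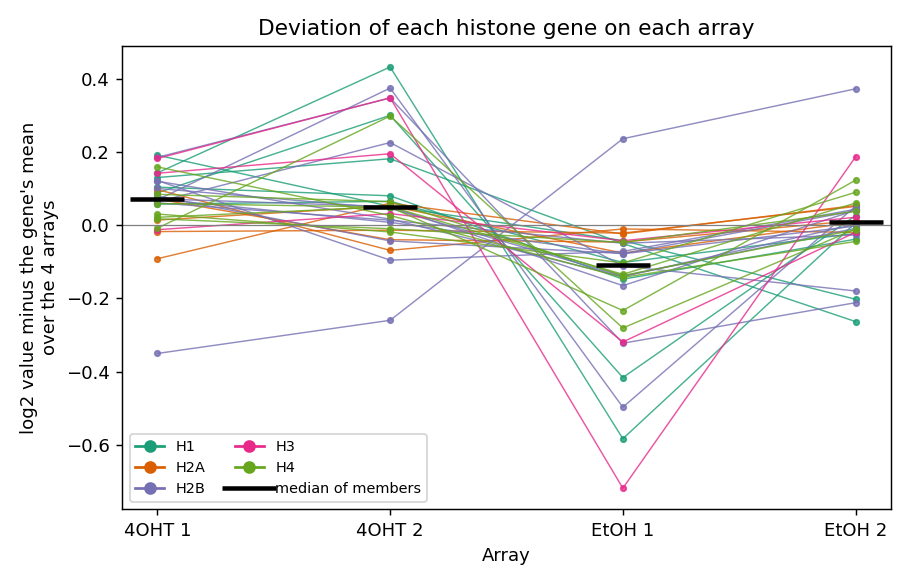
Deviation of each histone gene from its own mean over the 4 arrays (vertical axis, log2; 1 line per gene, coloured by class; black bars, median of the 32 genes) on each array. On EtOH replicate 1 most genes lie below 0, and H2bc4 alone lies below 0 on both 4OHT arrays and above 0 on both EtOH arrays.

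H2bc4 (Hist1h2bc), one of the H2B genes of the large chromosome 13 cluster, encodes a core histone of the nucleosome. Its values were 9.54 and 9.63 on the 4OHT arrays, against 10.13 and 10.27 on the EtOH arrays. Both 4OHT arrays were thus lower, and the gap between the conditions was several times the gap between replicates. The log2 fold change was -0.61 (SE 0.09, 95% interval -0.84 to -0.38), a 1.53-fold lower level in 4OHT-treated cells, with an adjusted p of 0.0439 (limma). EtOH replicate 1 was the lower of the EtOH arrays here too, so that leaving it out gave a larger difference (-0.68). The call was close to the threshold. On leaving out 1 array the log2 fold change was -0.56 without 4OHT replicate 1, -0.66 without 4OHT replicate 2, -0.68 without EtOH replicate 1 and -0.54 without EtOH replicate 2. The adjusted p (limma) of these fits was 0.128, 0.109, 0.174 and 0.216 in the same order, but without either EtOH array no gene of the whole array was called, so the lost call says nothing of H2bc4 there.

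The other 10 H2B genes had positive estimates, with a class median of 0.12. H2bc21 (Hist2h2be), an H2B gene of the chromosome 3 cluster, came nearest to a call. It measured 7.65 and 7.81 on the 4OHT arrays, against 7.14 and 7.25 on the EtOH arrays. These values did not overlap, and EtOH replicate 1 was only slightly the lowest. The log2 fold change was 0.53 (SE 0.09, 95% interval 0.29 to 0.78), with an adjusted p of 0.0693 (limma), and it was 0.48 without EtOH replicate 1. It passed in 2 of 12 alternative fits. These left out probe sets with a mean under 6 (adjusted p 0.0466, limma), or those with several or no symbols (adjusted p 0.00238, limma). The latter fit called 1739 genes lower and 1002 higher over the whole array, against 597 and 246 in the main fit. With a block for the replicate number the adjusted p of H2bc21 was 0.119 (limma). H2bu2 (Hist3h2ba), an H2B gene outside the large clusters, measured 8.23 and 8.39 with 4OHT and 8.05 and 7.98 with EtOH (log2 fold change 0.29, adjusted p 0.197, limma).

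H2bc8 (Hist1h2bg) had a large estimate with a large error. Its values were 10.73 and 11.03 on the 4OHT arrays, against 10.16 and 10.71 on the EtOH arrays, so that the lower 4OHT array and the higher EtOH array nearly met. The log2 fold change was 0.44 (SE 0.22, adjusted p 0.364, limma), and 0.17 without EtOH replicate 1. The 7 other H2B genes had log2 fold changes between 0.027 (H2bc22) and 0.15 (H2bu1-ps). H2bc14 (Hist1h2bm), whose probe set gave the highest H2B value, measured 13.32 and 13.26 with 4OHT, against 13.17 and 13.25 with EtOH (log2 fold change 0.08, 95% interval -0.12 to 0.28). The test of the difference in change between H2bc4 and the other H2B genes was not made, as genes of 1 array are not independent samples.

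**Figure D3:**
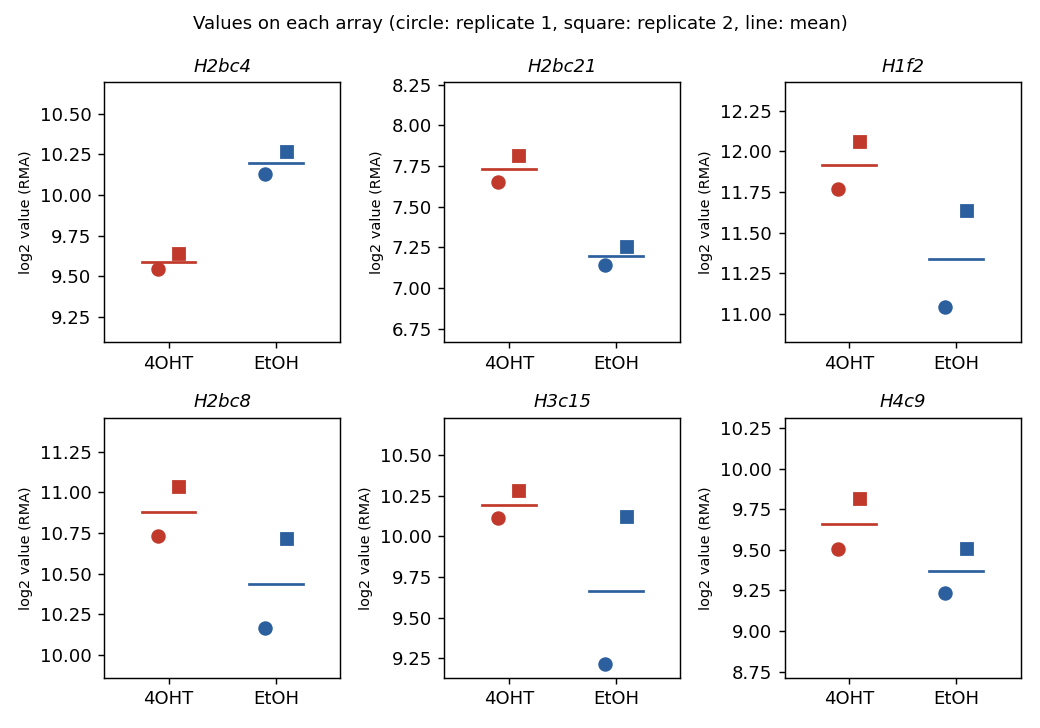
RMA log2 values of 6 histone genes on each array (vertical axis; 4OHT left, EtOH right; circles are replicate 1, squares replicate 2, lines the means; every panel spans the same log2 range). H2bc4 is lower and H2bc21 higher on both 4OHT arrays, and in H1f2, H2bc8, H3c15 and H4c9 replicate 2 is the higher array in both conditions, with the widest gap between the EtOH arrays of H3c15 (0.91).

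Linker histones bind DNA between nucleosomes. In all 6 H1 genes both 4OHT arrays lay above both EtOH arrays, an order seen in 32.1% of all genes. The class median was 0.28 (all genes: 0.031), yet none of the 6 was called. H1f2 (Hist1h1c) had the largest estimate of the 32 genes. It measured 11.77 and 12.06 with 4OHT, against 11.04 and 11.63 with EtOH. The conditions did not overlap, but the EtOH arrays differed by 0.59 between themselves, as much as the log2 fold change of 0.58 (SE 0.23, 95% interval -0.02 to 1.17, adjusted p 0.282, limma). Without EtOH replicate 1 the difference was 0.28. H1f3 (Hist1h1d) showed the same order of arrays, with 7.83 and 8.04 with 4OHT and 7.32 and 7.76 with EtOH (log2 fold change 0.39, adjusted p 0.333, limma). Leaving out EtOH replicate 1 gave 0.17, and leaving out EtOH replicate 2 gave 0.61.

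H1f5 (Hist1h1b), which had the highest H1 value, measured 12.97 and 12.98 on the 4OHT arrays and 12.81 and 12.89 on the EtOH arrays. The difference of 0.12 (SE 0.07, adjusted p 0.444, limma) did not pass. H1f1 (Hist1h1a) was 0.19 higher on the log2 scale (adjusted p 0.311, limma). For 2 H1 genes EtOH replicate 2, not replicate 1, was the lowest array. These were H1f10, with 9.06 and 8.92 with 4OHT and 8.82 and 8.66 with EtOH (log2 fold change 0.24), and the testis gene H1f6, with 6.26 and 6.31 with 4OHT and 6.08 and 5.86 with EtOH (log2 fold change 0.31). H1f6 lay below the arrays' medians of 7.11 to 7.16. Without EtOH replicate 1 the median of the H1 genes was 0.22. All 6 estimates stayed positive, which the order of the arrays had already fixed.

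The 5 H2A genes, whose product pairs with H2B in the nucleosome, had log2 fold changes near 0, with a class median of 0.029 and a range of -0.031 to 0.067. H2aw (Hist3h2a), the brightest, measured 13.43 and 13.47 with 4OHT, against 13.34 and 13.42 with EtOH (log2 fold change 0.067, SE 0.08, adjusted p 0.684, limma). H2ac4 (Hist1h2ab) measured 11.85 and 11.9998 with 4OHT, against 11.92 and 11.99 with EtOH (log2 fold change -0.031, 95% interval -0.26 to 0.20). The other 3, H2ac8, H2ac15 and the testis gene H2ac1, had log2 fold changes between -0.030 and 0.033. In 4 of the 5 H2A genes the arrays of the 2 conditions overlapped (all genes: 8658 of 19938).

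Of the 3 H3 genes, H3c15 (Hist2h3c2) had the widest spread of all 32. Its values were 10.11 and 10.28 with 4OHT, against 9.21 and 10.12 with EtOH. Only EtOH replicate 1 was low, and EtOH replicate 2 lay between the 4OHT arrays. The log2 fold change of 0.53 (SE 0.31, adjusted p 0.433, limma) was 0.079 without EtOH replicate 1. H3c4 (Hist1h3d) measured 9.35 and 9.40 with 4OHT and 8.89 and 9.19 with EtOH (log2 fold change 0.34, adjusted p 0.25, limma), and its difference was 0.19 without EtOH replicate 1. H3c7 (Hist1h3f), which was dim, measured 6.07 and 6.11 with 4OHT and 6.04 and 6.10 with EtOH (log2 fold change 0.020). The H3 median was 0.34, and 0.079 without EtOH replicate 1.

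The 7 H4 genes had a median of 0.11, which was -0.025 without EtOH replicate 1. H4c4 (Hist1h4d), the brightest of the 32, measured 13.98 and 13.96 with 4OHT, against 13.92 and 14.003 with EtOH (log2 fold change 0.0084, 95% interval -0.19 to 0.21). H4c9 (Hist1h4i) had the largest H4 estimate, with 9.51 and 9.81 on the 4OHT arrays and 9.23 and 9.50 on the EtOH arrays. These groups barely separated, and the log2 fold change of 0.29 (SE 0.15, adjusted p 0.386, limma) was 0.16 without EtOH replicate 1. The other 5 H4 genes had log2 fold changes between 0.013 (H4c6) and 0.19 (H4f16). In H1f2, H1f3, H2bc8, H3c15 and H4c9, replicate 2 was above replicate 1 in both conditions. That order was seen in 14 of the 32 histone genes (43.8%) and in 25.8% of all genes.

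The range of the estimates was narrower among the brightest genes. The 10 genes with a mean of 12 or more had log2 fold changes between 0.0084 and 0.19, and the 22 below that level between -0.61 and 0.58. Small estimates also occurred at low signal, as in H3c7 (mean 6.08, log2 fold change 0.020) and H2bc22 (mean 7.41, log2 fold change 0.027). Core histone genes of a class (H2A, H2B, H3 or H4) are nearly identical in their coding sequence. A probe set may also take up transcripts of its paralogs, so the values of single genes are uncertain in this respect. This was not tested. RefSeq lists 73 genes that fit the rule. Besides the 32 with a probe set of their own, 38 were only on probe sets that name several genes, and 3 on neither. A set of 24 such joint probe sets named 11 to 20 genes each and gave values between 13.5 and 14.1 in both conditions, close to the highest value on the arrays (14.2). Their log2 fold changes lay between 0.023 and 0.057, and none was called (lowest adjusted p 0.708, limma) or had an unadjusted p under 0.05. They comprised 2 probe sets for H2A, 7 for H2B, 10 for H3 and 5 for H4, 4 of which held the same values as another. EtOH replicate 1 was the lowest array in 24 of 24 (23.9% of all genes). The joint probe sets of a class name largely the same genes, so they are not separate observations.

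Of 2 probe sets shared by just 2 histone genes, that of H4c17 and H4c11 measured 9.92 and 10.45 with 4OHT, against 9.34 and 10.02 with EtOH (log2 fold change 0.51, SE 0.29, adjusted p 0.428, limma). That of H2bc6 and H1f4 measured 10.94 and 11.06 with 4OHT, against 10.60 and 10.82 with EtOH (log2 fold change 0.30, SE 0.11, adjusted p 0.25, limma). The conditions overlapped in the first and not in the second, and in both EtOH replicate 1 was the lowest array.

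**Figure D4:**
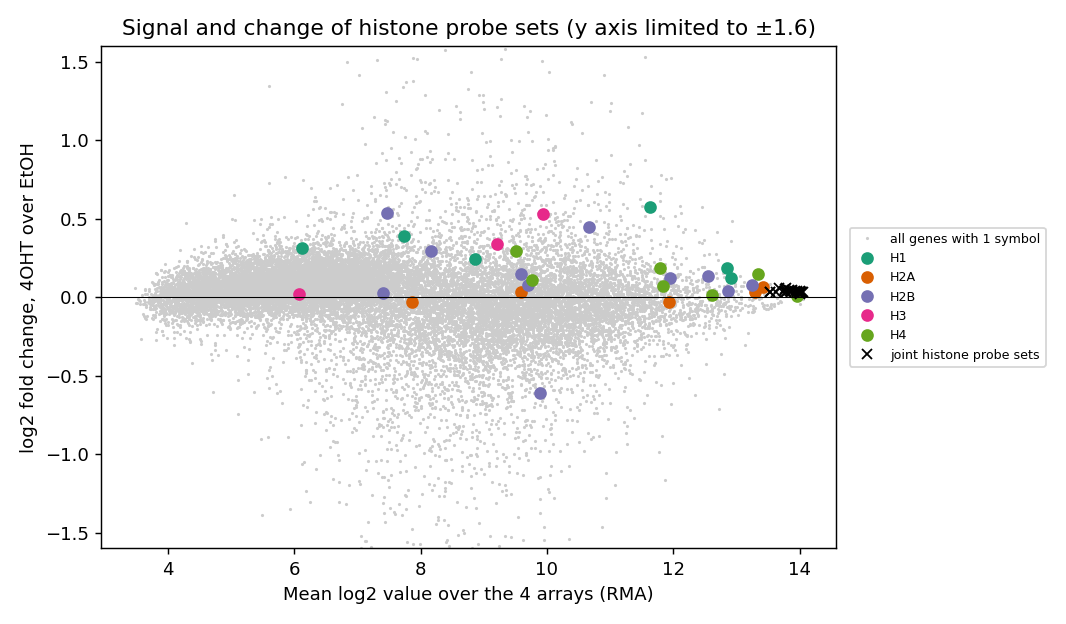
log2 fold change (vertical axis, 4OHT over EtOH) against the mean log2 value over the 4 arrays (horizontal axis) for all genes (grey), the 32 histone genes (coloured by class) and the 24 joint histone probe sets (crosses). The 10 brightest histone genes lie between 0.0084 and 0.19, and the dimmer ones spread more widely, with H2bc4 at -0.61.

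Promoter sequences show which elements the histone genes share, independently of the array values. RefSeq promoters (assembly GRCm38.p6, 250 bases before to 50 after the annotated start) were matched for 27 of the 32 genes, and H2bc4, H2bc21, H2bu1-ps, H3c7 and H4c14 were not matched. Motifs were searched on both strands. The CCAAT box was in 21 of the 27 promoters (77.8%, against 33.8% of all 32851 promoters) and the TATA box TATAAA in 15 (55.6%, against 12.4%). The octamer ATTTGCAT, which binds POU-domain factors such as OCT1, was in 9 (33.3%, against 1.601%): 4 of 5 H2A and 5 of 8 H2B promoters, and none of H1, H3 or H4. The H1 box AAACACA was in 8 (29.6%, against 6.25%), of which 4 were H1 genes. TGGGAA, taken here as the core of the Ikaros site, was in 2 promoters (7.41%, against 21.6%), both of H2B genes. The study reported another motif, AGGAA, as enriched among its Ikaros peaks in thymocytes. AGGAA was not searched here, so the TGGGAA count does not tell how many of these promoters hold an Ikaros site. A match of TGGGAA can share letters with ATTGG, the CCAAT box on the other strand, and AAACACA with TATAAA. A match describes letters and is no proof of binding.

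The 160 bases before the start are shown for H1f2 and H2bc8, whose estimates were among the largest, and for H2bc14, the brightest H2B gene, whose estimate was close to 0. Capitals mark the CCAAT box in either orientation, the TATA box, the octamer and the H1 box.
H1f2: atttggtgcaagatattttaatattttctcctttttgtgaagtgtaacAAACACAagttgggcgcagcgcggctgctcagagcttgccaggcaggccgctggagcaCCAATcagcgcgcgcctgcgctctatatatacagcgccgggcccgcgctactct
H2bc8: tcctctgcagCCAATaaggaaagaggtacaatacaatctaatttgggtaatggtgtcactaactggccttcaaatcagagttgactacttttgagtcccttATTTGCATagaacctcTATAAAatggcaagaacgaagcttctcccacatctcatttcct
H2bc14: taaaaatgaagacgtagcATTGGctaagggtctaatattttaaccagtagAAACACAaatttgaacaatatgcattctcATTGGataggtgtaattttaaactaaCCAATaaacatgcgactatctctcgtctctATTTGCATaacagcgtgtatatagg
H1f2, on the plus strand of chr13:23738647-23738806, has the H1 box ahead of a CCAAT box. H2bc8 (chr13:23571240-23571399, plus strand) has a CCAAT box, an octamer and a TATA box in that order, and H2bc14 (chr13:21721884-21722043, plus strand) has 3 CCAAT boxes in either orientation, the AAACACA motif and an octamer. Both H2B promoters hold the octamer. The log2 fold changes were 0.44 for H2bc8 (0.17 without EtOH replicate 1) and 0.08 for H2bc14, with overlapping intervals. A part of these motifs in the estimates was not tested.

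Other genes of the histone pathway were counted beside the shares over all genes given above (2.99% called lower and 1.23% higher, and 11.7% lower and 8.74% higher at an unadjusted p under 0.05). In lists of this size these shares amount to few genes or none, and counts near them are no result about a list. Of 15 measured genes for histone gene transcription and pre-mRNA processing, none was called (limma), 1 was lower and 1 higher at an unadjusted p under 0.05, and the median log2 fold change was -0.036. Slbp, the stem-loop-binding protein, measured 11.13 and 11.07 with 4OHT, against 10.93 and 10.60 with EtOH (log2 fold change 0.33, SE 0.13, adjusted p 0.28, limma). Its 4OHT arrays were both higher, and here EtOH replicate 2 was the lowest. Leaving that array out gave 0.17, and leaving out EtOH replicate 1 gave 0.50. Npat, the transcriptional coactivator of these genes, differed by 0.079 on the log2 scale (adjusted p 0.66, limma), and Casp8ap2 (FLASH), needed for their transcription and 3' end processing, by 0.18 (adjusted p 0.359, limma).

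None of 8 measured replication-independent histone variants was called (limma, with 1 higher at an unadjusted p under 0.05), and their median was 0.024. None of 19 histone chaperones was called (limma), and 3 were lower (11.7% of all genes) and 1 higher (8.74%) at an unadjusted p under 0.05, with a median of -0.027. Of 28 genes for S-phase entry and DNA replication, 1 was called higher (1.23% of all genes), and 6 were higher (8.74%) and 3 lower (11.7%) at an unadjusted p under 0.05. Their median was 0.10. The called gene was E2f2, an E2F transcription factor that acts on cell cycle genes. It measured 10.90 and 10.98 with 4OHT, against 9.81 and 9.83 with EtOH, far beyond the replicate gaps. It rose by 1.12 on the log2 scale (SE 0.07, adjusted p 0.0107, limma). The call was lost when 4OHT replicate 2 or either EtOH array was left out. Without either EtOH array no gene of the whole array was called, so the lost call says nothing of E2f2 there. The log2 fold change of E2f2 stayed between 1.08 and 1.17 in all alternative fits.

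The cell type was checked by markers. In EtOH-treated cells 8 T-cell markers had means between 8.09 and 13.3. The highest mean among 4 B-cell, 5 myeloid and 4 erythroid markers was 7.22, against array medians of 7.11 to 7.16. Cd3d (T cells) and Lyz2 (myeloid cells) were called lower and Cd5 and Itgam higher in 4OHT-treated cells. Summed over the list, the T-cell markers came to between 91.46 and 91.79 log2 units on the 4OHT arrays and between 91.52 and 91.75 on the EtOH arrays. At an unadjusted p under 0.05 (limma), 4 of these 8 markers were lower (11.7% of all genes) and 3 higher (8.74%). The near-equal sums thus do not mean that single markers were unchanged. The part of the markers in the histone values was not tested.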

How the data were processed

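RNA of 2 4OHT- and 2 EtOH-treated samples was hybridised to Affymetrix Mouse Gene ST 1.0 arrays, with 150 ng of total RNA as input. The authors deposited log2 values for each of 35556 probe sets. The submitters' notes name Affymetrix Expression Console 1.1 with the RMA method, in which background correction and quantile normalization precede a summary per probe set. RMA compresses differences of dim and of very bright probe sets, and the deposited table has no detection calls. The genome build of the probe sets is not given here.

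The conditions were compared by limma 3.58.1 in R 4.3.3, using lmFit and eBayes with no filter and no block (two-sided). Adjusted p-values are Benjamini-Hochberg values over all probe sets. Intervals are 95% and use limma's moderated variance (2 residual and 2.66 prior degrees of freedom). The fit was tested on simulated data. Symbols come from the array annotation, of which 21698 of 21789 were updated through RefSeq (GRCm38.p6), which also gave chromosomes, neighbours and promoters. Where a gene had several probe sets, the brightest stood for it. The number of arrays limits the precision. No source says whether the samples of a condition were separate cultures, and the p-values then speak only of the spread among these 4 samples, which may be technical. With 2 against 2 arrays an exact permutation test reaches p = 0.33 at best (two-sided), so none was used.

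The histone genes, the gene lists and the tests were chosen with earlier results of these data known. Named genes are the called members, in each class the brightest and those with the largest increase and decrease, Slbp, Npat, Casp8ap2 and called genes of the lists. Other members named were picked after their values were seen. The alternatives were a replicate block, another normalization, equal medians, a minimum mean of 6, probe sets with 1 symbol, an intensity trend, averaged probe sets per gene, another membership, stricter thresholds and leaving out each array.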

Additional observations from a re-analysis of the deposited data

How the results depend on the processing

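The count of histone genes called lower (1, H2bc4) was 0 with the replicate block, at an adjusted p under 0.01, and 0 to 0 on leaving out each array in turn. It was also 0 with the crossed pairing, and 1 under each of the other alternatives. The count called higher (0) was 1 with a minimum mean of 6 (H2bc21) and 3 with probe sets of 1 symbol (H1f6, H1f2 and H2bc21). On leaving out each array in turn the class medians ranged between 0.064 and 0.21 for H2B, 0.079 and 0.49 for H3, and -0.025 and 0.21 for H4, with the lower ends without EtOH replicate 1 and the upper ends without EtOH replicate 2. For H2A they ranged between -0.023 (without 4OHT replicate 1) and 0.048 (without 4OHT replicate 2), and for H1 between 0.22 and 0.29. The causes were not tested. Leaving out EtOH replicate 1 or 2 left no gene called over the whole array. The lone array of a condition is then assumed to vary like the arrays of the other.

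Same-numbered arrays were not paired by the labels, and their deviations correlated at -0.13 over all probe sets. With the replicate block 0 histone genes were called, and over all genes 25 were lower and 5 higher, against 597 and 246 without it. The crossed pairing, added after the data were seen, gave 0 histone genes, with 389 genes lower and 146 higher.

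The number of genes called over the whole array varied more than 1.5-fold between alternatives, with 1739 lower and 1002 higher among probe sets with 1 symbol, and 178 lower and 63 higher without 4OHT replicate 1, and 65 lower and 14 higher without 4OHT replicate 2. The log2 fold change of H2bc4 was -0.68 to -0.54 over 12 alternative fits and was called in 6 of them, and that of E2f2 was 1.08 to 1.17 and was called in 8 of 12, being lost with the replicate block (adjusted p 0.0592, limma), without 4OHT replicate 2 and without either EtOH array. The symbols on the array are current ones, so the alternative membership used the 28 genes with an older Hist symbol, leaving out the testis genes. It gave 1 lower and 0 higher.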

Other observations

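Hfe, an MHC class I-like gene that controls iron uptake, lies within the histone cluster on chromosome 13, 3 genes from H2bc4 in RefSeq order, and was picked here after its values were seen. It measured 6.37 and 6.53 on the 4OHT arrays, against 7.45 and 7.82 on the EtOH arrays, so that both 4OHT arrays were lower. The log2 fold change was -1.19 (SE 0.15, adjusted p 0.0345, limma). The genes between, H1f6 and H4c3, had log2 fold changes of 0.31 and 0.073 and were not called, and H1f2, 2 genes beyond Hfe, had 0.58. Trim38, another measured gene beside the histone genes of this chromosome, measured 4.99 and 5.20 with 4OHT, against 5.31 and 5.33 with EtOH (log2 fold change -0.22, adjusted p 0.33, limma).

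Chaperone and processing genes that came nearest to a call, also picked after their values were seen, were Ipo4, an importin that carries histones into the nucleus, and Cpsf3, the endonuclease that cuts histone pre-mRNA. Ipo4 measured 10.10 and 9.99 with 4OHT, against 10.45 and 10.58 with EtOH (log2 fold change -0.47, adjusted p 0.0764, limma). Cpsf3 measured 10.90 and 10.99 with 4OHT, against 11.34 and 11.33 with EtOH (log2 fold change -0.39, adjusted p 0.0818, limma). Ccne1, whose product cyclin E acts on NPAT, measured 10.39 and 10.58 with 4OHT, against 10.06 and 9.93 with EtOH (log2 fold change 0.49, adjusted p 0.0982, limma). In all 3 genes the conditions did not overlap, and none passed the threshold. Over all genes, both 4OHT arrays lay above both EtOH arrays in 32.1% and below both in 24.5%.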
